A study of Homo sapiens with 11 samples.

Results

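SKOV3 cells that had received a miR-365a-3p mimic were compared with SKOV3 cells that had received a control miRNA, and the response was described across all 31325 measured genes by pathway and gene family. The comparison used the 5 SKOV3 arrays of the series (3 with miR-365a-3p and 2 with the control miRNA) out of 11 arrays in 4 groups; the other 6 are MDA-MB-231 breast cancer cells, with 3 arrays per group. SKOV3 is an established human ovarian cancer line, called SKOV3.ip1 (a derivative) in the paper. The sample labels place the arrays at 48 h of treatment, whereas the design text of the series gives 24 h. The labels do not say whether replicates were separate cultures, so the p-values measure the spread between arrays within groups, which may be technical. That spread was estimated over all 11 arrays, the 6 of MDA-MB-231 cells included. With 3 arrays against 2, an exact permutation test has 10 arrangements and cannot give a p below 0.1, and the tests below therefore come from a linear model fitted across all genes with limma.

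A miRNA guides an Argonaute protein to messenger RNAs, mostly through pairing of its seed (bases 2 to 8) with the message, and the bound message is translated less and degraded. A transfected mimic raises the mature strand directly, without the steps that process a hairpin. Changes measured at the arrays' time include messages bound by the miRNA and messages that change as a consequence, and these measurements do not separate them.

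The mature strands of both miR-365 loci are shown because they define what the cells received. The 3p strand is encoded in RefSeq (GRCh38.p14) at chr16:14309340-14309361 (miR-365a) and at chr17:31575478-31575499 (miR-365b), both on the plus strand, and the 22 bases are the same at both loci. Capitals mark the seed.
hsa-miR-365a-3p: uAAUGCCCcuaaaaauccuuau
hsa-miR-365b-3p: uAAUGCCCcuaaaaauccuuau
hsa-miR-365a-5p: aGGGACUUuugggggcagaugug
hsa-miR-365b-5p: aGGGACUUucaggggcagcugu
The opposite (5p) strands share another seed and differ from each other after it. Among 2545 mature human entries of RefSeq, the 2 that hold the 3p seed are miR-365a-3p and miR-365b-3p. In the study's library of 879 mimics, 1 mimic has this seed, the one named miR-365. A seed match in a message would read GGGCAUU; transcript sequences were not used here, and no gene below was sorted by such a match.

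Expression is given as quantile-normalized values, treated as log2, on which the lowest genes lie a little above 7. The sources used here do not say whether the deposited values were log2 or variance stabilized. What is called a log2 fold change is the miR-365a-3p mean minus the control mean on this scale, and under a variance-stabilizing transformation it would understate the change of low genes. A gene is said to have risen or fallen where its Benjamini-Hochberg adjusted p, over all genes, was under 0.05. In these terms 2270 genes rose (7.25% of all genes) and 2228 fell (7.11%). The sizes were uneven. The largest falls reached -3.42 and the largest rise 2.49, and 615 genes fell by 1 or more on the log2 scale where 117 rose by as much. In all 4498 called genes the 3 miR-365a-3p arrays lay on one side of the 2 control arrays, which was also true of 41.8% of all genes. With the SKOV3 arrays fitted alone, 1278 genes rose and 1547 fell. Among the genes named below, AXL, ERBB2, LAMC1, HAT1, CAPZA2, IFI44, IFIT1, EDC4 and CLTB were among those that lost their call in that fit. With each SKOV3 array left out in turn, 553 rises and 1060 falls kept their call every time. Leaving out control replicate 2 lowered the counts to 614 rises and 1155 falls, and leaving out control replicate 1 lowered them to 880 and 1370. In every gene list below, the lowest count among these refits came with one of the control arrays left out.

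**Figure D1:**
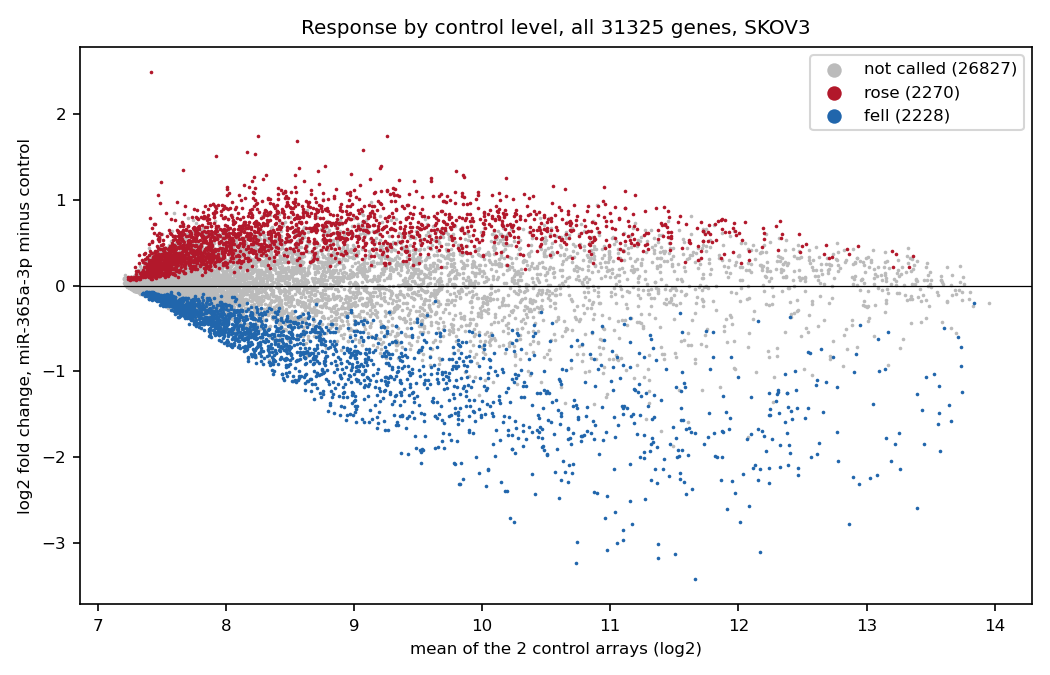
Log2 fold change of each gene in SKOV3 cells (vertical axis) against the mean of the 2 control arrays (horizontal axis, log2), with genes that rose in red, fell in blue and were not called in grey. Falls reached -3.42 while all but 1 of the rises stayed below 2, and the lower edge of the cloud follows the floor of the values, below which a gene cannot fall.

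The arrays of a group were closer to each other than to the other group. Over the 6853 genes with a mean above 8, the root mean square difference was 0.152 between the control arrays, 0.275 to 0.474 between miR-365a-3p arrays and 0.579 to 0.863 between the groups. Replicate 1 of miR-365a-3p was farthest from the controls. It had the lowest value of the 3 in 1512 of the 2228 genes that fell and the highest in 1681 of the 2270 that rose. The 75th percentile of the deposited values was 7.98 and 8.04 in the control arrays and 7.67 to 7.80 in the miR-365a-3p arrays, and the 99th percentile was 12.21 and 12.31 against 12.41 to 12.49. The deposited distributions thus differed with treatment, and quantile normalization set them equal. Among genes with a mean above 8, 23.4% rose and 15.3% fell after quantile normalization, while 15.1% rose and 19.3% fell in the values as deposited. The median log2 fold change of these genes was 0.15 and 0.00 on the 2 scales. Counts within gene families are read against those shares. The mean is taken over all 11 arrays, so MDA-MB-231 levels enter this filter. CELSR2, with a SKOV3 control mean of 8.89, is left out by it, and ITGA2, with 7.55, is kept. Widely used control genes moved as well. ACTB (beta-actin) was at 10.21, 10.89 and 11.29 with miR-365a-3p and at 13.33 and 13.46 with the control. GAPDH was at 12.63, 12.35 and 13.00 against 13.26 and 13.30, a difference of -0.62 with an adjusted p of 0.0505. Their part in the other results was not tested.

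Markers of the line were checked. The epithelial keratins KRT19 and KRT8 and the adhesion molecule EPCAM were high in the control arrays, with KRT19 at 11.88 and 11.96 and EPCAM at 10.50 and 10.23. Other epithelial members were low there, with the keratin KRT18 at 7.90 on both arrays and the claudin CLDN4 at 7.40 and 7.35. The ovarian cancer markers MUC16, WT1 and WFDC2 lay between 7.31 and 7.41 on all 5 arrays, near the floor. Of the 11 leukocyte, endothelial and fibroblast markers none had a mean above 8 over all arrays of both lines, though COL1A1 was above 8 in the SKOV3 controls. Among them COL1A1 fell by 1.11, from 8.50 and 8.52, and LUM (lumican) rose by 0.72, a call that was lost without either control array. In bulk RNA, fewer cells expressing a gene and less of its RNA per cell cannot be told apart. Of the 15 epithelial and ovarian cancer markers 1 rose and 3 fell. The keratin KRT7 rose by 1.27, from 8.22 and 8.21 to between 9.18 and 9.66. ERBB2 had a log2 fold change of -1.57, lost without either control array, MUC1 -0.81 and PAX8 -0.70. The rows for the miR-365 precursors were not called. MIR365-1 was at 8.32, 7.82 and 7.83 with the mimic and at 7.63 and 7.72 without (adjusted p = 0.25), and MIR365-2 lay at the floor. A mimic does not pass through the precursor, so these rows do not check the transfection.

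Of 4 genes that the paper names as targets, HDAC4, a class IIa histone deacetylase, fell. It was at 7.32, 7.47 and 7.43 with miR-365a-3p and at 8.24 and 8.08 with the control, a log2 fold change of -0.75 (SE 0.11, adjusted p = 0.0021). The groups did not overlap, and the call held in the 12 refits that included the gene. CCND1 (cyclin D1) was at 8.50, 9.38 and 9.08 against 9.84 and 9.70, a difference of -0.78 that did not pass the test (adjusted p = 0.29). BCL2, an inhibitor of apoptosis, lay between 7.34 and 7.39 on all 5 arrays, and NKX2-1 between 7.27 and 7.33, both near the floor, where a fall could not have been measured.

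The 12 largest falls were in genes of different roles. MYH9, the heavy chain of nonmuscle myosin IIA, fell from 11.73 and 11.60 to 7.86, 8.61 and 8.27, a log2 fold change of -3.42. HCFC1, a chromatin-bound transcriptional coregulator, fell from 10.77 and 10.69 to between 7.44 and 7.56, close to the floor. Next came IGF2R (-3.18), which carries IGF2 and lysosomal enzymes to the lysosome, and COL5A1 (-3.13), a fibrillar collagen chain. ZFP36L1 (-3.10) encodes a protein that binds AU-rich elements and promotes decay of messages. It was at 12.16 and 12.17 in the controls and at 8.80, 9.47 and 8.92 with miR-365a-3p. The other genes among the 12 largest falls were ZDHHC8, LAMA5, PIK3R2, AHNAK2, EPN1, LOC440353 and GPR56, between -3.08 and -2.78, and in each of the 12 all miR-365a-3p arrays were more than 1 below the controls.

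The largest rise was that of the row MIR1974, from 7.42 and 7.41 to 10.42, 9.92 and 9.37. Its call was lost without either control array. MNAT1 (1.74), the assembly factor of the CDK-activating kinase, and CCNA1 (1.59), cyclin A1, rose as well. RRAS2 (1.74), a RAS-family GTPase, rose from 9.22 and 9.29 to 11.10, 10.98 and 10.92. SEC11C (1.69) encodes a subunit of the signal peptidase, SNHG6 (1.56) is a host gene of a small nucleolar RNA, and MRPL1 (1.39) is a protein of the mitochondrial ribosome. XRCC4 (1.53), a partner of DNA ligase IV in end joining, and COMMD10 (1.37) rose too, but XRCC4 was not called without either control array and COMMD10 not without control replicate 2.

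**Figure D2:**
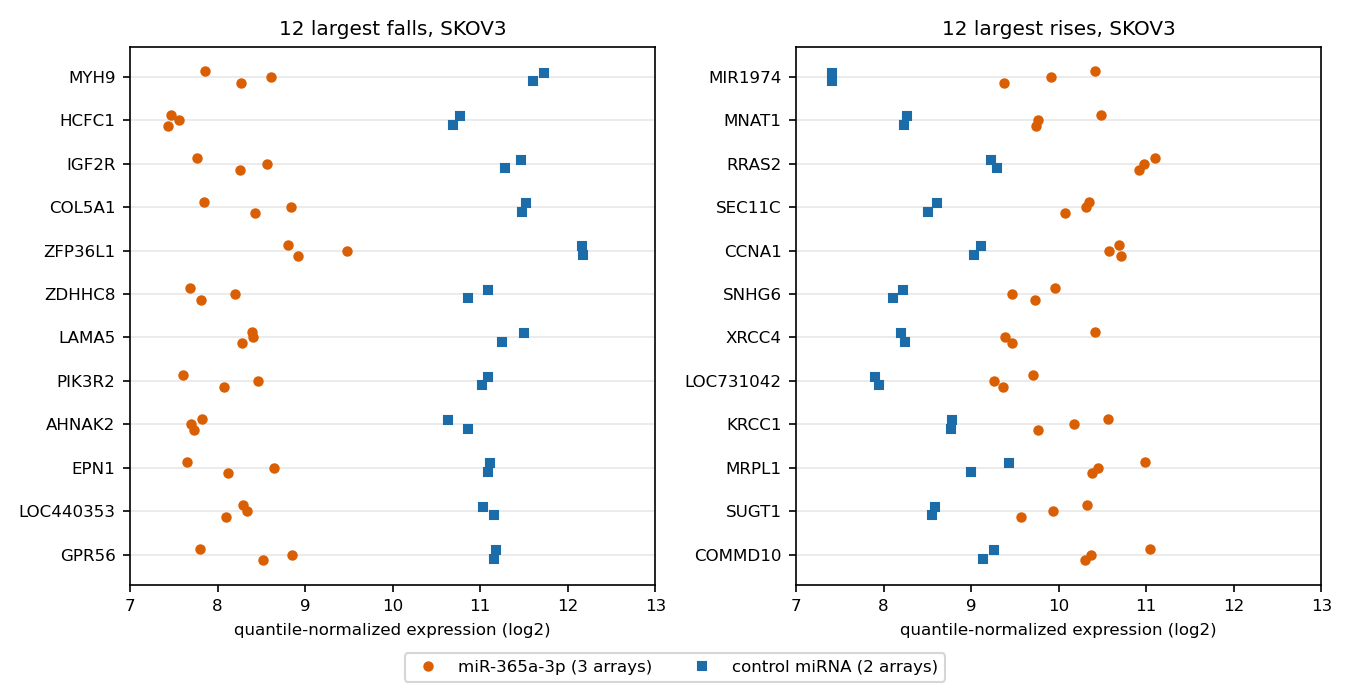
Quantile-normalized expression (log2, horizontal axis) of the 12 genes with the largest falls and the 12 with the largest rises on each SKOV3 array, circles for the 3 miR-365a-3p arrays and squares for the 2 control arrays. The groups do not overlap for any of the 24 genes, and the falls are wider than the rises.

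Genes of the mitochondrial ribosome, which makes the proteins encoded by mitochondrial DNA, rose together. Of 77 measured members 37 rose and 1 fell, and of the 74 with a mean above 8, 50.0% rose against 23.4% of all such genes. Their median log2 fold change was 0.59, against 0.15 for all genes with a mean above 8, and it was 0.47 on the deposited scale. MRPS22 rose from 9.83 and 9.86 to 11.31, 11.18 and 10.93 (1.29), and MRPL15 from 10.33 and 10.05 to between 11.17 and 11.61 (1.26). MRPS2 fell by 0.53, a call that was lost in several refits. With arrays left out in turn the list had 16 to 48 rises and 0 falls by the limma test (2 falls at an unadjusted p under 0.05 with all arrays).

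Subunits of the respiratory chain and ATP synthase had 18 rises and 1 fall among 75 members. The share that rose among those with a mean above 8, 25.0%, was near that of all genes, while 1.47% fell. NDUFB5, a subunit of complex I, rose from 10.99 and 10.91 to 12.11, 12.25 and 11.95 (1.15), and UQCRB of complex III rose by 0.97. Cytosolic ribosomal proteins gave 17 rises and 2 falls of 87, and the 20.0% that rose above a mean of 8 was also near the share of all genes. As deposited 30 of them rose and 1 fell, with a median above 8 of 0.39. After cyclic loess 11 rose and 3 fell, with a median of 0.07, so this result depended on the scale. The rises numbered, with an array left out, 4 to 29 for the respiratory chain and 5 to 18 for the cytosolic ribosome. RPL34 (1.29) and RPL29 (1.24) rose most. RPL29 was at 9.53, 9.48 and 9.58 against 8.38 and 8.20. Near-identical copies of ribosomal protein genes can share a probe, so single members are uncertain.

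Shares of rises nearer to that of all genes were found in the proteasome (31.4% of members with a mean above 8), chaperone (29.6%) and DNA replication (33.3%) lists, against 23.4%. Of the proteasome subunits 11 of 39 rose and 1 fell. PSMC2, an ATPase of the regulatory particle, rose from 11.31 and 11.23 to between 12.03 and 12.32 (0.87). Heat shock proteins and chaperones had 9 rises and 1 fall of 29, with CCT2 (0.92) of the cytosolic chaperonin and HSPE1 (0.90) of the mitochondrial one. The fall was BAG3 (-1.66), a cochaperone of HSP70, from 9.35 and 9.46 to 7.55, 7.89 and 7.81. In the DNA replication list 12 of 48 rose and 1 fell. As deposited 10 rose and 9 fell, and after median centring 10 rose and 7 fell, so this balance depended on the scale. PRIM1, the catalytic primase subunit, rose from 8.54 and 8.50 to between 9.28 and 9.77 (0.97), and POLE, the catalytic subunit of DNA polymerase epsilon, fell by 0.44. Of 16 host genes of small nucleolar RNAs, 6 rose and none fell by the limma test, nor at an unadjusted p under 0.05. Of the 11 host genes with a mean above 8, 54.5% rose, farther from the 23.4% of all such genes. As deposited, 2 host genes rose. With an array left out, the rises numbered 3 to 15 in the proteasome list, 4 to 11 among chaperones, 4 to 11 in the replication list and 1 to 7 among the host genes.

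Extracellular matrix genes fell. Of 55 collagens and laminins 16 fell and none rose by the limma test (1 rose at an unadjusted p under 0.05), and 60.0% of the 10 with a mean above 8 fell, against 15.3% of all such genes. Their median was -1.18, and -1.29 on the deposited scale. LAMA5, a laminin chain of basement membranes, fell from 11.50 and 11.24 to 8.39, 8.40 and 8.28 (-3.01). COL5A1 was at 11.53 and 11.48 in the controls and at 7.84, 8.84 and 8.43 with miR-365a-3p. LAMC1, at 8.68, 10.92 and 10.21 against 12.34 and 12.13, was wide within its group, and its call was lost without either control array. Of 36 metalloproteinases and their inhibitors 5 fell and none rose by the limma test (3 rose at an unadjusted p under 0.05). The falls were 13.9% of that list, against 7.11% of all genes. The median of the 8 with a mean above 8 was -0.14, and 4 of these had positive values. The inhibitors TIMP2 (-2.18) and TIMP1 (-1.66) were among the falls. TIMP2 was at 9.92 and 10.03 in the controls and between 7.66 and 7.94 with miR-365a-3p. VCAN (versican), a matrix proteoglycan, fell by 2.27. Between 7 and 16 collagens and laminins fell with an array left out.

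Adhesion families were unequal. Of 26 integrins, which bind the matrix, 2 fell and 1 rose, and above a mean of 8 11.1% moved in each direction. Of 23 cadherins and catenins 7 fell and none rose by the limma test (2 rose at an unadjusted p under 0.05). The falls were 30.4% of that list, against 7.11% of all genes. FAT1, a giant atypical cadherin, fell from 9.87 and 9.83 to 7.57, 7.62 and 7.57 (-2.26), and CELSR2, a cadherin of planar cell polarity, fell by 1.51. Of 32 receptor tyrosine kinases 7 fell (21.9%, against 7.11% of all genes) and none rose by the limma test. At an unadjusted p under 0.05, 11 fell and none rose. AXL was at 8.18, 9.63 and 9.66 against 11.59 and 11.59 (-2.44), and ERBB2 at 8.52, 9.69 and 9.65 against 10.91 and 10.82 (-1.57). In both, replicate 1 was over 1 below the other miR-365a-3p arrays, and the calls were lost without either control array. Over all arrays of both lines most cadherins, catenins and receptor kinases were low, since 4 members of each list had a mean above 8. The refits with an array left out gave 5 to 7 falls of cadherins and catenins and 3 to 8 of receptor kinases.

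In the list of actin, myosin and actin cross-linkers, the contractile and cortical skeleton, 19 of 52 fell and 6 rose. Above a mean of 8, 40.5% fell, against 15.3% of all such genes. ACTB (-2.59) and ACTN1 (-1.81), an actin cross-linker, fell beside MYH9. ACTN1 was at 8.51, 9.27 and 9.09 against 10.76 and 10.78. The rises included CAPZA2 (1.08) and CAPZA1 (0.86), which cap the barbed ends of filaments, and TAGLN (0.58). The calls of both capping subunits were lost without either control array, and 13 to 20 genes of the list fell with an array left out. Of the kinesin and dynein motors 10 of 48 fell (5 to 10 with an array left out) and 3 rose. Of the 22 motors with a mean above 8, 22.7% fell, and their median was 0.02. DYNC1H1, the heavy chain of cytoplasmic dynein, fell from 9.67 and 9.90 to between 7.68 and 7.73 (-2.07). DYNLT3, one of its light chains, rose by 1.05, a call lost without either control array.

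Families of chromatin regulators differed in their counts. Among chromatin remodellers and bromodomain proteins 15 of 40 fell and 2 rose, and 35.0% of the 20 with a mean above 8 fell. SMARCA4, an ATPase of SWI/SNF complexes, fell from 10.62 and 10.62 to 8.17, 8.54 and 8.34 (-2.27), and BRD2, which binds acetylated histones, fell by 1.42. SMARCB1, another SWI/SNF subunit, rose by 0.43, a call lost as deposited and without control replicate 2 or miR-365a-3p replicate 1. Of 43 histone acetyltransferases and subunits of their complexes 11 fell and 5 rose. TRRAP, a scaffold of such complexes, fell from 9.75 and 9.83 to between 7.65 and 7.78 (-2.08), and CREBBP by 1.10, while HAT1 rose by 1.23 (not called without either control array). Above a mean of 8, 27.8% of this list fell and 22.2% rose, with a median of -0.03. With an array left out, 7 to 15 remodellers and 7 to 13 acetyltransferase genes fell.

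Histone methyltransferases were mixed, with 8 falls (4 to 9 with an array left out) and 6 rises (1 to 9) of 37, and 14.3% of those with a mean above 8 fell. CARM1, an arginine methyltransferase, fell from 10.77 and 10.60 to 8.44, 9.36 and 8.94 (-1.78), and SMYD2, a lysine methyltransferase, rose by 0.74. Of 21 histone demethylases 7 fell (3 to 6) and 1 rose. Of the 6 demethylases with a mean above 8, 33.3% fell. KDM5B fell by 0.94 and KDM3B by 0.91, and MINA rose by 0.53. Of 18 histone deacetylases and sirtuins 3 fell (HDAC4, HDAC7 and SIRT1) and 3 rose (HDAC2, HDAC11 and SIRT5). Of these 6 calls, that of HDAC4 alone held with every array left out in turn. The HP1 and polycomb list had 4 falls and 2 rises of 27, and the core histone genes 3 falls and 2 rises of 82. Over all genes 7.11% fell and 7.25% rose. The shares that fell and rose were 16.7% and 16.7% among deacetylases and sirtuins and 14.8% and 7.41% in the HP1 and polycomb list. Among core histone genes they were 3.66% and 2.44%.

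Genes of the microRNA pathway itself fell. Of 32 members 15 fell and 1 rose, and 42.9% of the 14 with a mean above 8 fell. EIF2C2 (now AGO2), the Argonaute protein that cuts paired messages, was at 7.60, 7.82 and 7.68 with miR-365a-3p and at 8.82 and 8.75 with the control (-1.09). PABPC1, the poly(A)-binding protein that messages lose during decay, fell from 12.04 and 12.12 to 8.91, 9.90 and 9.72 (-2.57). EDC4, a scaffold of decapping, fell by 1.28, a call lost without control replicate 1. TARBP2, a partner of Dicer, rose by 0.51, a call lost in 6 of 13 refits. Between 10 and 14 genes of the list fell with an array left out.

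RNA processing was divided by family. Among SR proteins and hnRNPs, which bind precursor messages, 11 of 36 fell and 1 rose. Above a mean of 8, 29.0% fell, against 15.3% of all such genes. HNRNPU fell from 9.67 and 10.02 to between 8.17 and 8.38 (-1.57), and SFRS3 rose by 0.65. Core spliceosome snRNP proteins gave 9 falls and 8 rises of 39 (20.6% and 23.5% above a mean of 8). PRPF8, the largest protein at the catalytic core, fell from 10.31 and 10.04 to 7.79, 7.79 and 7.76 (-2.40), while SNRPD1, a small Sm protein, rose from 8.07 and 7.97 to 9.28, 8.94 and 9.08 (1.08). Translation initiation factors gave 9 rises and 4 falls of 44 (23.7% and 10.5% above a mean of 8). EIF3F was at -1.95 and EIF3M, a subunit of the same complex, at 0.76. With an array left out, 2 to 11 SR proteins and hnRNPs and 5 to 9 snRNP proteins fell, and 3 to 8 initiation factors rose.

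**Figure D3:**
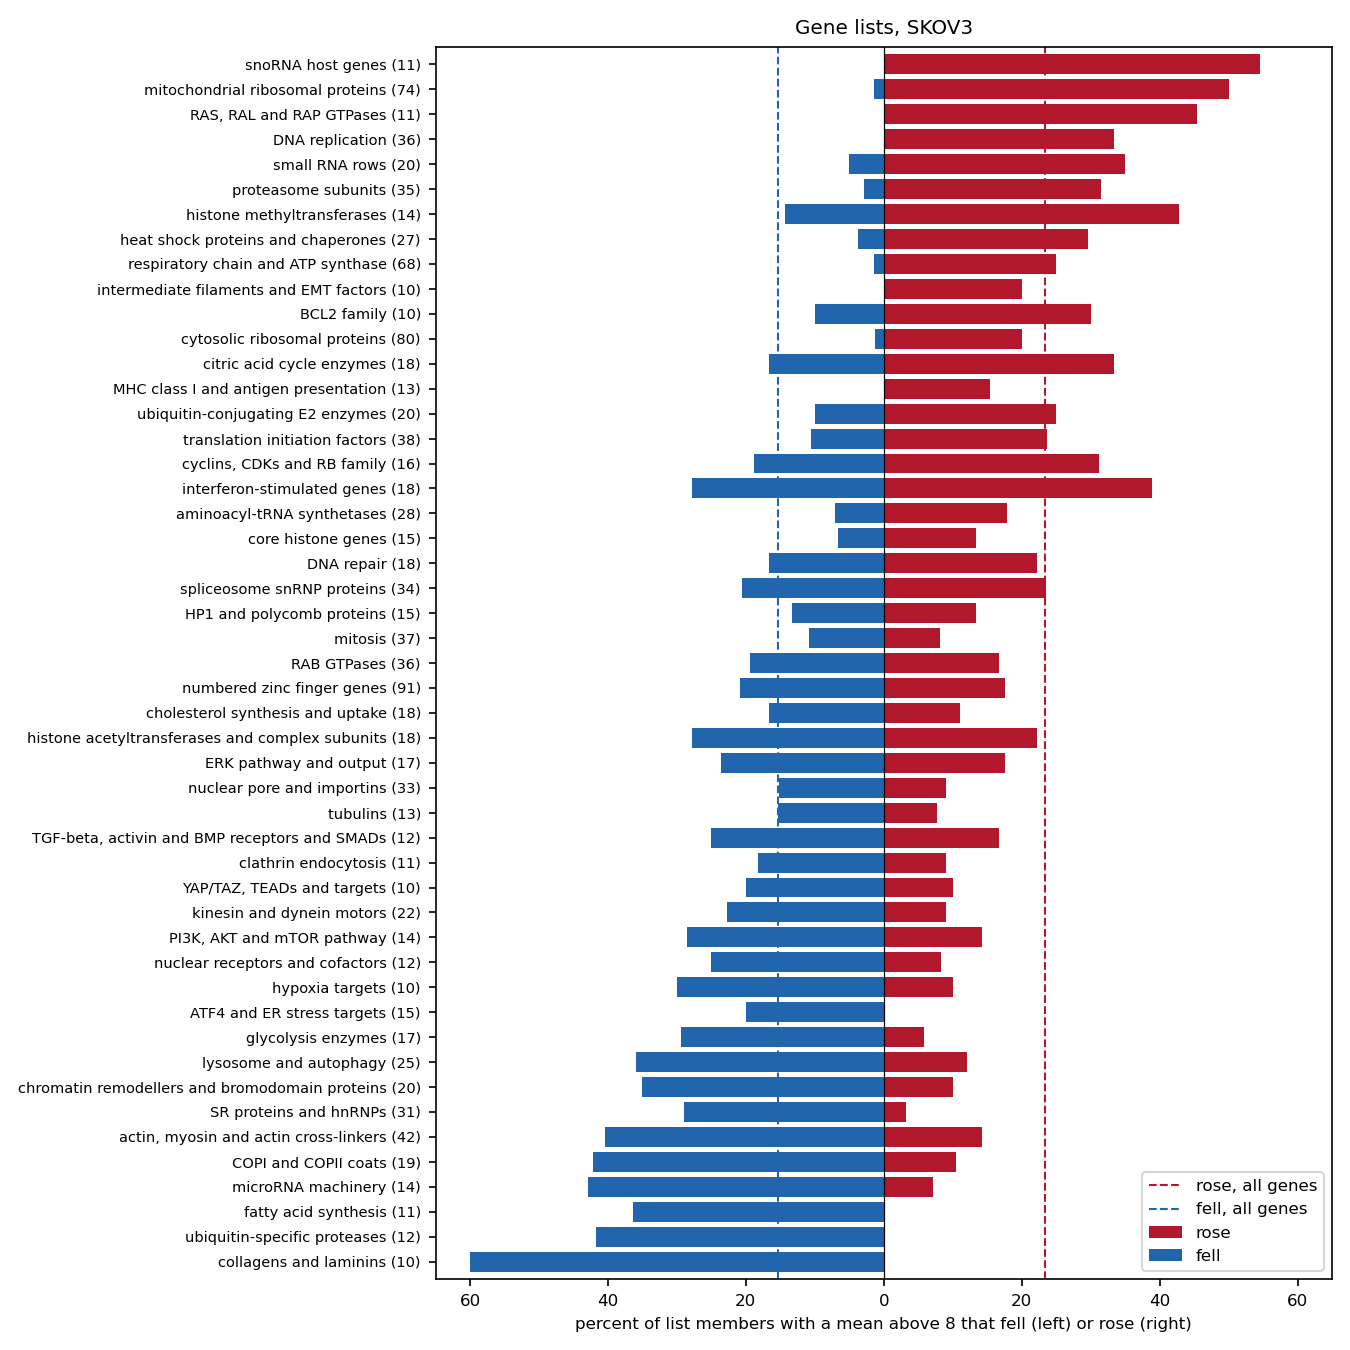
Percent of the members of each gene list that rose (red, right) or fell (blue, left) in SKOV3 cells, for lists with at least 10 members whose mean over all arrays was above 8 (their number is in parentheses); dashed lines give the shares over all 6853 such genes. Mitochondrial ribosomal proteins reach 50.0% rises and collagens and laminins 60.0% falls, against 23.4% and 15.3% over all genes.

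Families of membrane traffic and protein turnover differed as well. Of the COPI and COPII coats, which shape vesicles between endoplasmic reticulum and Golgi, 9 of 24 fell and 2 rose. Above a mean of 8, 42.1% fell, against 15.3% of all such genes. SEC16A, which organizes exit sites, fell from 8.91 and 8.99 to between 7.40 and 7.47 (-1.51). In the clathrin list 9 of 28 fell and 1 rose, but above a mean of 8 the share that fell, 18.2%, was near that of all genes. In this list EPN1 was at -2.97 and the heavy chain CLTC at -1.40, while the light chain CLTB rose by 0.64 (not called without control replicate 2). Of the lysosome and autophagy genes 11 of 34 fell and 3 rose, and ULK1, the kinase that starts autophagy, fell from 9.05 and 8.91 to between 7.65 and 7.78 (-1.28). Of 52 ubiquitin-specific proteases 14 fell and 1 rose, with USP49 at -2.31 and USP9X at -1.12. Only 12 of them had a mean above 8, of which 41.7% fell. The RAB GTPases, which direct vesicles to their targets, had 9 rises and 10 falls of 72. Above a mean of 8, 16.7% of them rose and 19.4% fell, against 23.4% and 15.3% of all such genes. The ubiquitin-conjugating E2 enzymes had 6 rises and 5 falls of 34. Of the E2 enzymes with a mean above 8, 25% rose and 10% fell. With an array left out, falls numbered 3 to 10 among the coats, 3 to 7 in the clathrin list, 5 to 11 in the lysosome list and 5 to 11 among the proteases.

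In metabolism, fatty acid synthesis had 5 falls (1 to 7 with an array left out) and no rise among 13 genes. At an unadjusted p under 0.05, 7 fell and none rose. Of the 11 with a mean above 8, 36.4% fell, against 15.3% of all such genes. FASN, the fatty acid synthase, fell from 9.92 and 9.73 to 7.46, 7.64 and 7.45 (-2.31). The calls of ACACA (-1.10) and SCD (-1.11) were lost without control replicate 2, that of SCD also without control replicate 1. The amino acid transporters SLC7A5 (-2.64) and SLC7A1 (-1.91) fell, and SLC7A5 went from 11.01 and 11.06 to 7.72, 8.83 and 8.64. Among 20 glycolysis enzymes 5 fell (3 to 5 with an array left out) and 2 rose, with ALDOA at -1.92 and GPI at -1.11. Of 20 citric acid cycle enzymes 6 rose (2 to 6) and 3 fell. CS, the citrate synthase, fell by 2.00, while SUCLG1, a subunit of succinyl-CoA ligase, rose by 0.80. Above a mean of 8, 29.4% of the glycolysis enzymes fell. Of the citric acid cycle enzymes above it, 33.3% rose and 16.7% fell.

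Signalling genes were divided. In the PI3K, AKT and mTOR list 9 of 33 fell and 2 rose. Above a mean of 8, 28.6% fell, against 15.3% of all such genes, with a median of -0.08. PIK3R2, a regulatory subunit of PI3K, fell from 11.08 and 11.02 to 7.60, 8.47 and 8.07 (-3.01), FOXO1, a transcription factor that AKT inhibits, fell by 1.56, and FRAP1 (now MTOR) by 0.80. Of the RAS, RAL and RAP GTPases 5 of 20 rose (2 to 5 with an array left out) and 2 fell, with RRAS2 at 1.74. Above a mean of 8, 45.5% of these GTPases rose, against 23.4% of all such genes. ACVR1, a type I BMP receptor, fell from 9.55 and 9.71 to between 7.60 and 7.87 (-1.90), and its partner BMPR2 by 0.97.

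Of 39 interferon-stimulated genes 10 rose (2 to 13 with an array left out) and 6 fell (4 to 9). Above a mean of 8, 38.9% of this list rose and 27.8% fell. IFITM3, which blocks viral entry, fell from 12.11 and 12.19 to 9.74, 9.67 and 10.25 (-2.26), and IFITM2 had a log2 fold change of -1.86. IFI44 (1.02), IFIT1 (0.79) and ISG15 (0.77) rose, and each of these 3 calls was lost without either control array. In the cell cycle lists, CDC25B, a phosphatase that activates CDK1, fell from 10.53 and 10.80 to 8.09, 8.66 and 8.39 (-2.29), and CDK6 fell by 1.36. CCNA1 rose from 9.11 and 9.03 to 10.69, 10.57 and 10.71. Numbered zinc finger genes, most of them DNA-binding repressors, gave 52 rises (8 to 64) and 57 falls (29 to 61) of 525. These were 9.9% and 10.9% of the list, against 7.25% and 7.11% of all genes. Above a mean of 8, 17.6% rose and 20.9% fell, against 23.4% and 15.3%.

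The direction of several families depended on the scale. The families with a fall on both scales included collagens and laminins, the coats and the SR proteins and hnRNPs. ATF4 and ER stress targets had a median above 8 of 0.02 after quantile normalization and -0.26 as deposited, and numbered zinc finger genes had 0.08 and -0.14, so neither has a settled direction. As deposited, 13 zinc finger genes rose and 134 fell. The balance of calls moved in other lists too. On that scale 3 interferon-stimulated genes rose and 9 fell, and 3 RAB GTPases rose and 18 fell. Rises and falls there were 1 and 6 for E2 enzymes, 2 and 12 for histone methyltransferases and 5 and 6 for initiation factors. Over all genes 1201 rose and 4401 fell on the deposited scale.

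**Figure D4:**
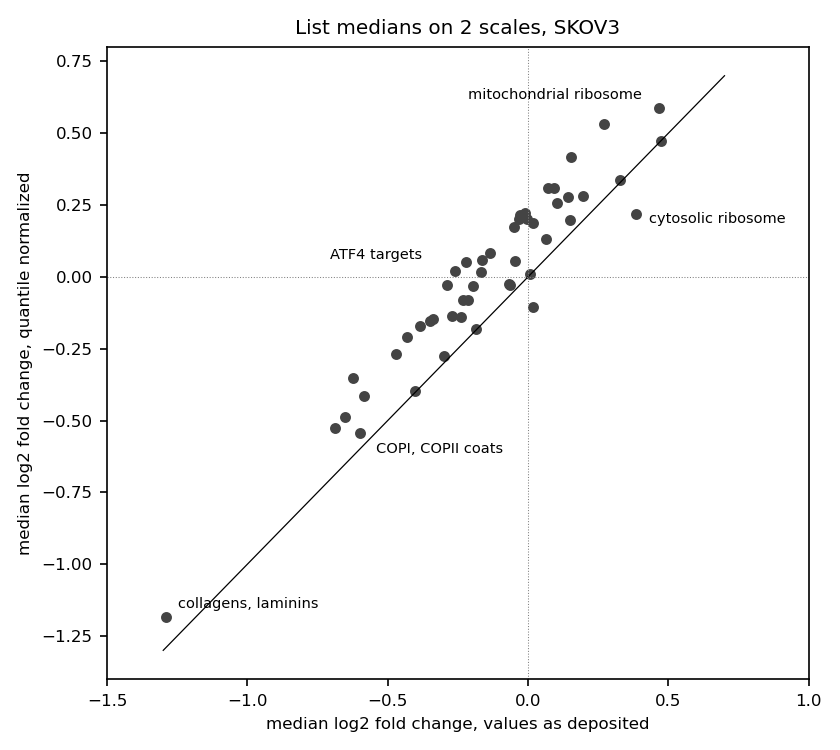
Median log2 fold change in SKOV3 cells of each list with at least 10 members above a mean of 8, after quantile normalization (vertical) and as deposited (horizontal); the line marks equal values. Most points lie above the line, the collagens and laminins are at -1.18 and -1.29 and the mitochondrial ribosomal proteins at 0.59 and 0.47, while lists in the upper left quadrant change sign.

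The response was set against that of MDA-MB-231 cells to find where it differed. The difference of the 2 responses passed the test for 796 genes (2.54% of all genes), and for 123 with the labels' replicate number as a block. Of the genes that fell in SKOV3 cells, 208 fell by more there, but in MDA-MB-231 controls only 36 of these 208 had a mean above 8, and a gene near the floor cannot fall. MXRA5, a matrix protein, fell from 10.24 and 10.25 to 7.42, 7.57 and 7.47 in SKOV3 cells (-2.76), and had a control mean of 7.35 in MDA-MB-231 cells (0.13 there). The same holds for VCAN, CELSR2, FOXO1, COL1A1, the ovarian lineage factor PAX8 (-0.70) and the mucin MUC1 (-0.81), whose MDA-MB-231 control means were between 7.35 and 7.53. The difference for VCAN was lost with the block, and without either SKOV3 control array or miR-365a-3p replicate 3.

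Some genes that differed had control means above 8 in both lines, though the floor still limited how far several could fall. AHNAK2, a large scaffold protein, fell by 2.99 in SKOV3 cells and by 1.48 in MDA-MB-231 cells (adjusted p of the difference 0.0105), where it went from a mean of 8.99 to 7.52. CDC25B had -2.29 and -0.95 (0.00886), and went from 8.55 to 7.60 in MDA-MB-231 cells. TRRAP had -2.08 and -1.29 (0.00609), and went from 8.81 to 7.53 there. A fall as large as that in SKOV3 cells could not have been measured for these 3 genes. In the other direction DYNC1H1 had -2.07 in SKOV3 cells, where it ended at a mean of 7.71, and -3.36 in MDA-MB-231 cells (0.00745). The differences for AHNAK2, TRRAP, DYNC1H1 and JUN, given next, were lost with the replicate block. Those for AHNAK2 and CDC25B were also lost without control replicate 2, and that for DYNC1H1 without control replicate 1. JUN, a subunit of AP-1, was at 8.69, 8.52 and 8.67 against 8.11 and 8.15 in SKOV3 cells, a rise of 0.50, and stood at -0.73 for MDA-MB-231 cells (0.00126). The rise of JUN was lost in the values as deposited and without control replicate 1. CCNA1, near the floor in MDA-MB-231 controls (mean 7.57), rose by 1.59 against 0.50 (0.000606). ITGA2, CTGF and RAC2 had control means from 10.29 to 12.86 in MDA-MB-231 cells and fell there, with log2 fold changes of -2.64, -3.21 and -2.57. In SKOV3 cells ITGA2 and RAC2 were near the floor. CTGF fell there by 0.70, from a mean of 8.43 to 7.74, close to the floor, a call lost without either control array. A fall as large as that in MDA-MB-231 cells could not have been measured in SKOV3 cells for ITGA2, RAC2 or CTGF.

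**Figure D5:**
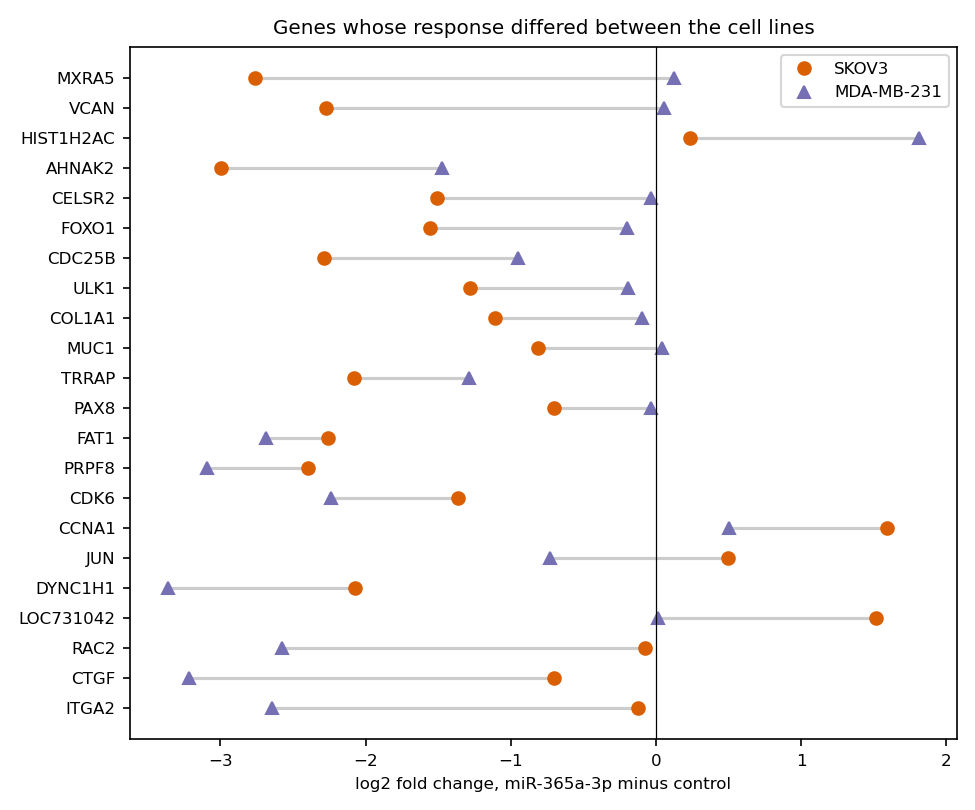
Log2 fold change with miR-365a-3p in SKOV3 cells (circles) and MDA-MB-231 cells (triangles) for 22 named genes whose difference between the lines passed the test, ordered by that difference. MXRA5 is at -2.76 and 0.13, and CTGF at -0.70 and -3.21. The floor limited how far MXRA5 could fall in MDA-MB-231 cells and CTGF in SKOV3 cells.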

How the data were processed

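Biotin-labelled cRNA made from total RNA was read on Illumina HumanHT-12 v4 BeadChips. Per the paper's methods the authors quantile normalized with lumi, and the deposited table holds 1 value per symbol and array, treated here as log2. How probes were combined, whether background was subtracted, and whether the transformation was log2 or variance stabilizing are not given in the sources used here. The deposited columns did not share a distribution, so quantile normalization over 11 arrays was applied in limma 3.58.1 (R 4.3.3). A model with 4 group means was fitted (lmFit, eBayes), with Benjamini-Hochberg adjustment over 31325 genes and a threshold of 0.05. Groups follow the sample labels, and precision is limited by how few arrays there are. Of the symbols, 17755 were current in RefSeq (GRCh38.p14) and 3305 matched an older symbol.

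Named genes are the 12 largest rises and falls among called genes without overlap between groups, up to 3 such rises and falls in each of 64 gene lists (otherwise the member with the highest mean), the 4 named targets, cell identity markers and the 5 largest differences between the lines. GAPDH and the MIR365 rows were added after their values were seen, and a few genes that the rule names are counted but not reported here. The members and lists were chosen with earlier results of these data known. Alternatives were the deposited scale, median centring, cyclic loess, SKOV3 arrays normalized or fitted alone, a replicate block, a filter on the mean, an intensity trend, a fold change minimum and each SKOV3 array left out. The fit was tested on simulated data. Protein lengths and seed sites in transcripts were not analysed here.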

Additional observations from a re-analysis of the deposited data

Results flagged for a closer look

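The response of 22 named genes differed between the cell lines by the limma test of the difference (SKOV3 minus MDA-MB-231, log2). It was more negative in SKOV3 cells for MXRA5 (-2.89), VCAN (-2.32), HIST1H2AC (-1.58), AHNAK2 (-1.52), CELSR2 (-1.47), FOXO1 (-1.36), CDC25B (-1.34), ULK1 (-1.09), COL1A1 (-1.01), MUC1 (-0.851), TRRAP (-0.792) and PAX8 (-0.667). It was more positive for FAT1 (0.424), PRPF8 (0.696), CDK6 (0.874), CCNA1 (1.09), JUN (1.23), DYNC1H1 (1.29), LOC731042 (1.5), RAC2 (2.5), CTGF (2.52) and ITGA2 (2.52). HIST1H2AC did not fall in SKOV3 cells, where its log2 fold change was 0.23, against 1.81 in MDA-MB-231 cells. The difference for FAT1 was lost in 8 of 9 alternatives, among them the deposited scale, median centring, cyclic loess and the replicate block. That for CDK6 was lost with the block and without either SKOV3 control array. With miR-365a-3p both genes ended near the floor in both lines, which limited their falls. In SKOV3 and MDA-MB-231 cells FAT1 ended at means of 7.59 and 7.56 and CDK6 at 7.62 and 7.59. PRPF8 also ended near the floor in SKOV3 cells, which limited its fall there.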

How the results depend on the processing

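The count of genes that rose was 2270. It was 1201 on the deposited scale, 1338 with the SKOV3 arrays normalized and fitted alone, 1278 with them fitted alone, 1224 with a log2 fold change of at least 0.5, and 614 to 2674 with 1 array left out. The count that fell was 2228. It was 4401 on the deposited scale, 3630 after median centring, 1299 when the fit and the adjustment were restricted to genes with a mean above 8, 1280 with the fold change minimum, and 1155 to 2347 with 1 array left out. Falls made up 49.5% of the calls, 78.6% on the deposited scale and 67.7% after median centring. Genes whose response differed between the lines numbered 796, and 313 to 1227 with 1 SKOV3 array left out. With the replicate block, 2113 genes rose, 1978 fell and 123 differed between the lines. The labels' numbers are not stated to pair cultures, and in SKOV3 cells the deviations of same-numbered arrays correlated at 0.0391 and -0.0730. Across the lines, same-numbered miR-365a-3p arrays correlated at 0.695, 0.311 and 0.344 and same-numbered controls at 0.124 and -0.130. Differently numbered miR-365a-3p arrays of the 2 lines ranged from -0.738 to 0.635. The highest of these, MDA-MB-231 replicate 3 with SKOV3 replicate 2, was above the same-numbered values of replicates 2 and 3. The paper numbers the SKOV3 controls 2 and 3 where the labels give 1 and 2. Under that numbering the control pairs correlated at 0.13 and 0.306 across the lines and the pairs within SKOV3 cells at 0.0730 and 0.191, so the pairing that a block should use is not settled. The block also ended the called difference for AHNAK2, DYNC1H1, TRRAP, JUN, ULK1, PRPF8, CDK6, FAT1, VCAN and LOC731042.

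Of 303 named genes with a call, 144 kept it in every refit that included them (12 or 13). HIST1H2AC (0.23) turned to -0.0299 on the deposited scale, and SMAD7 (0.18) to -0.115 there and to -0.0777 after median centring. The cause was not tested. With 2 control arrays, 1 control array is assumed to vary like the other groups when the other is left out. The descriptions of protein length and of seed matches were not run, since no protein or transcript sequences were used here. Genes near the floor of the values have no measurable fall.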
